A study of Mus musculus with 48 samples.

Results

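The type I interferon response genes described here are 35 mouse genes named in a list, among them the Mx, Oas and Ifit families, Isg15 and Irf7. For each gene the brightest probe set (the group of array probes that reads 1 transcript) annotated with a single gene symbol was used. Such a probe set existed for 33 of the 35 genes, out of 22180 gene symbols measured in all. Oas1a was read only by a probe set shared with Oas1g, and Ifi44 had none that names it, so neither has a value. Most comparisons below set wild-type mice kept in Freising on chow against another group.

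The study profiled whole tissue from the squamocolumnar junction and gastric cardia of mice, the region where the oesophagus meets the stomach, with Affymetrix arrays. It asked how several risk factors act on a mouse model of Barrett oesophagus, a condition in which columnar tissue replaces the squamous lining. There were 48 arrays in 16 groups of 3, and the deposited values were log2 signals. A difference of 1 on that scale is a doubling.

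The wild-type groups were WT_Freising_chow, WT_Freising_HFD (high fat diet, Freising) and WT_MRI_chow (the facility labelled MRI), all 12 months old. The genotype labelled pl2, written pL2 here as in the Notch lines, is the interleukin-1 beta model. As background, that transgene is known to be driven by a viral promoter active in the squamous epithelium of the oesophagus and forestomach. It was carried by pL2_Freising_chow, pL2_Freising_HFD and pL2_MRI_chow, and by all the groups named pL2 below, at 12 months unless stated. FXR and pL2_FXR were altered in the bile acid receptor FXR, in a way that the labels do not specify, and were 12 months old. pL2_IL8_9mo and pL2_IL8_12mo overexpressed IL-8 and were 9 and 12 months old. These 4 groups were kept at MRI on chow. Of the 6 Notch lines, 3 targeted Lgr5-positive stem cells (pL2_Lgr5_Notch1fl, pL2_Lgr5_Notch2fl and pL2_Lgr5_Notch2IC) and 3 targeted Dclk1-positive tuft cells (pL2_Dclk_Notch1fl, pL2_Dclk_Notch2fl and pL2_Dclk_Notch2IC). Their labels spell the alleles Notch1fl_fl, Notch2fl_fl and Notch2IC_LacZ. Those mice were 9 to 13 months old and had tamoxifen at 3 to 6 months, and all were at MRI on chow. Sex is not labelled, and nothing states whether the 3 arrays of a group came from separate litters or cages, so p-values measure only the spread between these arrays.

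Type I interferons bind a shared receptor on nearly every cell, and Janus kinases there phosphorylate STAT proteins. STAT2 and IRF9 belong to the complex that binds interferon-stimulated response elements in promoters and switches on antiviral genes. The products block viral entry, translation and replication, sense foreign nucleic acid, and in the case of Usp18 and Isg15 also tune the signal itself.

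Whole-tissue identity fitted the label. The mean of the gastric epithelial markers in WT_Freising_chow was 12.50 and that of the squamous markers 9.63, on the log2 scale. Arrays of 1 group correlated at r of 0.918 to 0.989 across genes, and no pair of arrays held identical values. Hepatocyte or intestinal marker means exceeded 8 on 10 arrays, none of them from WT_Freising_chow. In whole tissue, more cells of a type and more RNA per cell cannot be told apart.

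The promoters of these genes are shown first, since interferon acts through them. RefSeq (GRCm38.p6) gave a window from 250 bases before to 50 bases after the start for 25 of the 33 measured genes. The core of the interferon-stimulated response element, searched as GAAA, any 2 bases and GAAA again on both strands with overlapping matches kept, occurred in 15 of the 25 genes (60%) and in 1079 of 27025 genes with a window (3.99%). The longer form, the same letters followed by CT, occurred in 28% of the 25 genes and 0.3% of all. TTCNNNGAA, the element of the interferon gamma pathway, occurred in 16% and 9.55%. No window was given for Mx1, Mx2, Oas2, Usp18, Dhx58, Zbp1, Rtp4 or Parp14. The genes below were picked to show a dense cluster of the core (Isg15), paired copies (Ifit1, Ddx60, Oas1g), a gene with the core that was not called (Ifit3) and a gene with a large difference and no match in the window (Irf7). Each line holds the 160 bases before the start, 5′ to 3′ in the direction of transcription, with every core match in capitals (a match to the opposite strand reads TTTC, any 2 bases and TTTC).
Isg15: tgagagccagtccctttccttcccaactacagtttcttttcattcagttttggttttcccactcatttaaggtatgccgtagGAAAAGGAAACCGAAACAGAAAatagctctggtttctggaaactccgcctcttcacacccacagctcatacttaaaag
Ifit1: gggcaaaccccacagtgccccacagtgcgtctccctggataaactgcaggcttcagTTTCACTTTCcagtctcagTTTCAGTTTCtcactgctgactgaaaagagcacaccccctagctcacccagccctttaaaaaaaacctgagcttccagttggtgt
Ddx60: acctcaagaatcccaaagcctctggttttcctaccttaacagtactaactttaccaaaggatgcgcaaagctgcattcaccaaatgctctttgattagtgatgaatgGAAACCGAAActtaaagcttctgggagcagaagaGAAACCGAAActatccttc
Oas1g: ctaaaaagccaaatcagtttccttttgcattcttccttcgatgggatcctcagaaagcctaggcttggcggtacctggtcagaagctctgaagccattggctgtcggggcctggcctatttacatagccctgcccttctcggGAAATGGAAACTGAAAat
Ifit3: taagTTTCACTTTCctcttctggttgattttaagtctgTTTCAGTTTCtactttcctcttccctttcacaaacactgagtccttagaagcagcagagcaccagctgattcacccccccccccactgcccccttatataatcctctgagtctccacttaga
Irf7: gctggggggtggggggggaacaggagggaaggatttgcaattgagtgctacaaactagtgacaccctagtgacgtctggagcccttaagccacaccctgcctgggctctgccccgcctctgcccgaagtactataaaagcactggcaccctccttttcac

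In GRCm38.p6 these stretches lie at chr4:156200819-156200978 on the minus strand (Isg15, 3 overlapping matches, the first at -78), chr19:34640729-34640888 on the plus strand (Ifit1, 2 matches, the first at -104) and chr8:61927927-61928086 on the plus strand (Ddx60, 2 matches, the first at -53). The others lie at chr5:120887614-120887773 on the minus strand (Oas1g, 2 overlapping matches, the first at -18), chr19:34583369-34583528 on the plus strand (Ifit3, 2 matches, the first at -156) and chr7:141266425-141266584 on the minus strand (Irf7). A match is a string of letters, not a measured binding site, and the absence of one says only that these letters are not in the window.

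Averaged over the 33 genes, the 3 WT_Freising_chow arrays read 6.78, 7.61 and 7.03. The other 45 arrays ran from 4.66 to 5.96. The lowest WT_Freising_chow array was therefore above the highest array of any other group, and the other 15 group means lay close together, between 5.12 and 5.59, against 7.14. WT_Freising_chow had the highest mean of the 16 groups for 30 of 33 genes. The group ranked 2 for Ifit3, 4 for Slfn5 and 7 for Ifit2. Replicate 2 held the highest of the 3 WT_Freising_chow values for 31 of the 33 genes.

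**Figure D1:**
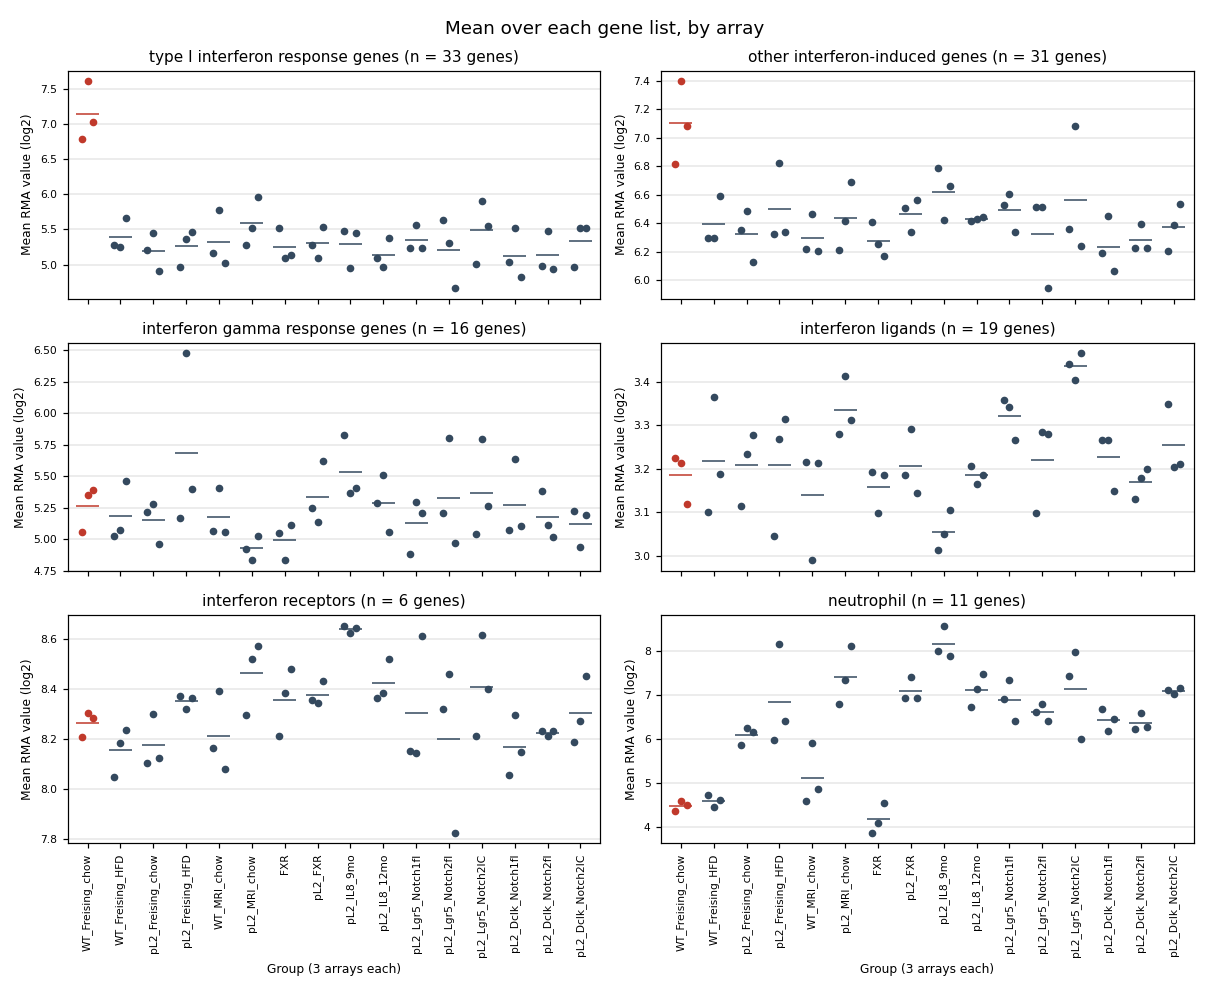
Mean log2 value over each gene list (vertical axis) for every array, by group (horizontal axis; 3 points per group, bar at the group mean, WT_Freising_chow in red). The 33 type I interferon response genes average 6.78 to 7.61 in WT_Freising_chow and at most 5.96 elsewhere, while ligands, receptors and interferon gamma genes of WT_Freising_chow lie within the range of the other arrays.

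For 18 of the 33 genes all 3 WT_Freising_chow arrays lay above all 45 other arrays. Across all 22180 genes this held for 27, or 0.122%, so these genes supplied 66.7% of that set, which is 54.5% of the list. Of the other 9, 6 belong to wider interferon lists (Ddx58, Helz2, Ifi27, Parp12, Rnf213 and Sp100). The remaining 3, Gm20234, Rnf31 and Tle5, are on no list and are named only after their values were seen. For Rnf31 and Tle5 the margin was slight, 7.46 in both the lowest WT_Freising_chow array and the highest other array of Rnf31, and 10.94 against 10.93 for Tle5. The type I interferon list was chosen with earlier results of these data known, so its share of this set is a description and not a test.

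Against the equal-weight mean of the 15 other groups, 29 of 33 genes were higher at an adjusted p below 0.05 (limma, two-sided, Benjamini-Hochberg over all genes), where 1.08% of all genes were higher. None was lower, against 0.947% of all genes. The median difference was 2.004, and over all genes it was -0.026. Oasl1, Ifit2, Ifit3 and Slfn5 did not pass.

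The transcription factors were higher together. Irf7, the factor that amplifies interferon production, read 8.07, 8.69 and 8.40 in WT_Freising_chow, while the other arrays ran from 4.81 through a median of 5.92 to 7.41. The groups did not overlap, and the difference from the mean of the others was 2.39 ± 0.36 (SE), a fold of 5.26 (adjusted p = 6.81e-05). Stat2 read 7.80, 8.49 and 7.76 against at most 7.46 elsewhere, a difference of 1.33 ± 0.17 (adjusted p = 4.2e-06). Irf9, its DNA-binding partner, read 7.04, 7.73 and 7.31 and differed by 0.97 ± 0.19 (adjusted p = 0.00245). For Irf9 1 array of another group, at 7.10, stood above the lowest of them.

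Mx1 and Mx2 encode dynamin-like GTPases that trap incoming viral particles. Mx1 read 5.95, 6.70 and 6.00 in WT_Freising_chow, and the other arrays ran from 2.50 through 3.31 to 3.82. No array outside WT_Freising_chow reached its own array's median signal for either gene, so both were near the floor of the array there. Differences in measured signal against such levels, here and in the comparisons below, give only a lower bound on the change in transcript. The Mx1 difference in signal was 2.91 ± 0.18 (adjusted p = 7.83e-14). Mx2 read 4.67, 5.72 and 4.48 against at most 3.55, and differed by 2.19 ± 0.23 (adjusted p = 1.74e-07).

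The Oas family makes the short adenylate chains that activate RNase L. Oas2 had the largest difference of all 33 genes. It read 9.65, 10.30 and 9.50 in WT_Freising_chow, and 4.09 to 7.36 elsewhere with a median of 5.70, a difference of 4.04 ± 0.43 or 16.5-fold (adjusted p = 1.8e-07). The group next to it was WT_Freising_HFD, whose arrays read 7.23, 7.30 and 7.36. Oas1g (8.32, 8.84 and 8.27, against at most 6.87) and Oas3 (6.45, 7.36 and 6.91, against at most 5.98) also stood clear of every other array. Their differences were 2.78 ± 0.41 and 2.53 ± 0.35. Oas1g shares a near-identical copy, Oas1a, so signal between them is uncertain. Oasl2, an OAS-like relative, differed by 2.36 ± 0.40 (adjusted p = 0.000373). Oasl1, a repressor of Irf7 translation, read 8.28, 8.83 and 8.27, but pL2_MRI_chow read 7.73, 8.79 and 8.77. These groups overlapped, and the Oasl1 difference of 1.04 ± 0.34 did not pass (adjusted p = 0.0998).

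The Ifit family, whose proteins bind foreign RNA ends and block its translation, split. Ifit1 read 7.68, 8.98 and 7.52 in WT_Freising_chow and at most 6.61 elsewhere, a difference of 3.17 ± 0.37 or 9.01-fold (adjusted p = 5.68e-07). Ifit1bl1 read 7.36, 7.61 and 6.93, a difference of 2.14 ± 0.55 (adjusted p = 0.028), with pL2_MRI_chow at 5.94, 7.49 and 6.91 overlapping it. Ifit2 and Ifit3 did not pass. Ifit2 read 3.15, 3.69 and 3.50 in WT_Freising_chow, within the 2.46 to 4.53 of the others, and differed by 0.04 ± 0.21 (95% interval -0.38 to 0.47, adjusted p = 0.946). Ifit3 read 4.68, 5.08 and 5.31, within 4.32 to 5.58, and differed by 0.18 ± 0.18 (95% interval -0.19 to 0.55, adjusted p = 0.69). Ifit2 lay above its array's median on only 3 arrays, none of them WT_Freising_chow, whereas Ifit3 lay above it on all 48. Neither was called against any of the 15 groups, and whether these probe sets respond to their transcripts was not tested.

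**Figure D2:**
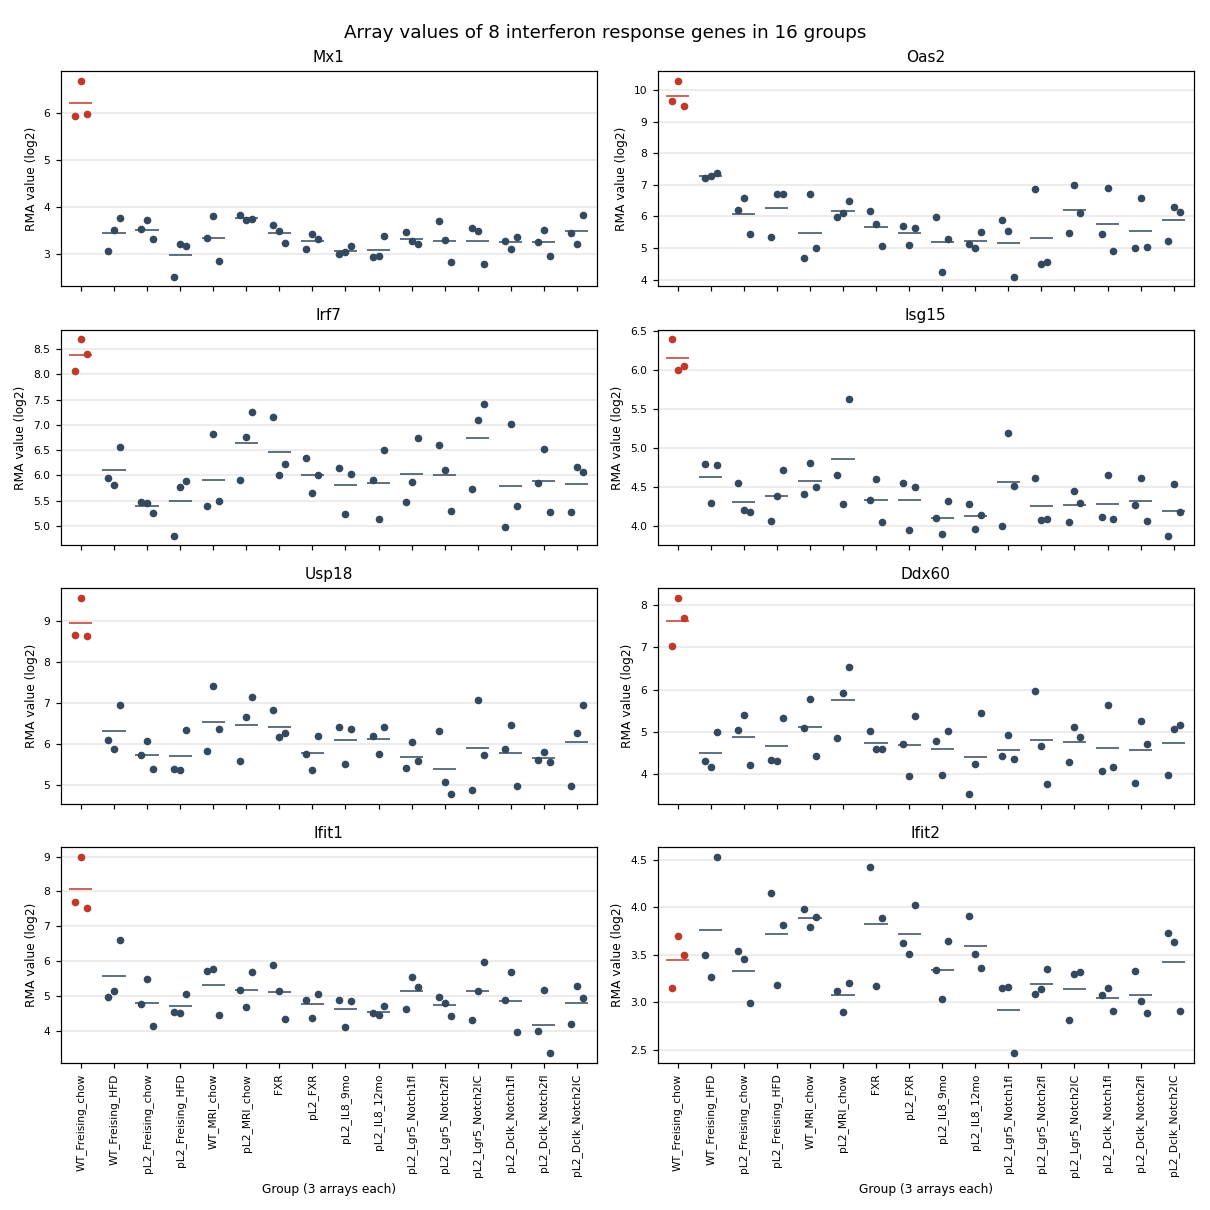
Log2 value of 8 genes (vertical axes) on each of the 48 arrays, by group (horizontal axis; points are arrays, bars group means, WT_Freising_chow in red). Mx1, Oas2, Irf7, Isg15, Usp18, Ddx60 and Ifit1 have all 3 red points above every other array, and the red points of Ifit2 (3.15 to 3.69) fall inside the range of the others.

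Isg15 is a ubiquitin-like protein attached to other proteins, Herc6 the ligase that attaches it in mice, and Usp18 the protease that removes it and restrains the interferon receptor. Usp18 read 8.65, 9.55 and 8.62 against a highest other array of 7.41, a difference of 2.97 ± 0.37 (adjusted p = 1.52e-06). Isg15 read 6.39, 6.00 and 6.05 against at most 5.63, and differed by 1.77 ± 0.20 (adjusted p = 3.21e-07). Unlike most of the list, Isg15 was highest in replicate 1. Herc6 read 6.47, 7.67 and 7.31 and differed by 1.29 ± 0.17 (adjusted p = 5.81e-06). Its lowest array lay just under the highest WT_Freising_HFD array, at 6.51.

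All 5 nucleic acid sensors were higher. Ddx60, a helicase that assists RNA sensing, read 7.02, 8.15 and 7.68 against at most 6.52, a difference of 2.86 ± 0.39 (adjusted p = 9.33e-06). Dhx58, the regulatory relative of RIG-I, read 6.27, 7.63 and 6.83 against at most 5.61 (difference 2.004 ± 0.24). Zbp1, the sensor of left-handed nucleic acid, read 6.88, 8.12 and 7.33 against at most 6.81 (difference 2.07 ± 0.33). These 3 and Ifih1, the long double-stranded RNA sensor MDA5, cleared every other array. Ifih1 read 7.79, 8.61 and 8.11 and differed by 1.20 ± 0.23 (adjusted p = 0.00149). Eif2ak2, the kinase PKR that halts translation, differed by 0.89 ± 0.17 (adjusted p = 0.00239), with 2 other arrays above its lowest value of 6.77.

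Of the 11 other effectors measured, 10 were higher and Slfn5 was not called. Rsad2 (viperin, which makes a chain-terminating nucleotide) read 6.446, 7.573 and 7.002 against at most 5.82, and differed by 2.31 ± 0.27. Rtp4 read 7.24, 8.36 and 7.48 against at most 6.35, and Xaf1, a pro-apoptotic protein, read 6.80, 7.42 and 6.88 against at most 6.43. Their differences were 2.39 ± 0.30 and 1.52 ± 0.23. Bst2, or tetherin, holds budding virus at the cell surface. It read 5.88, 6.25 and 5.62, and 1 pL2_Lgr5_Notch1fl array at 5.70 exceeded the lowest of these, with a difference of 2.12 ± 0.29 (adjusted p = 9.33e-06). Cmpk2, a mitochondrial nucleotide kinase, differed by 1.82 ± 0.31. The spread was widest for Apol9b, which read 5.42, 7.47 and 6.23 and differed by 2.75 ± 0.48. Trim30a read 3.60, 5.50 and 5.42, and 18 other arrays exceeded its lowest value, although its difference of 1.31 ± 0.31 passed (adjusted p = 0.0176). Apol9b, Bst2 and Trim30a lay above the array median on only 7, 10 and 6 of the 45 other arrays. The size of their differences is therefore limited by the floor. Ifi35 (0.82 ± 0.15) and Parp14 (0.77 ± 0.20) showed the smallest differences that passed. Slfn5 read 5.18, 5.55 and 5.50 with a difference of 0.33 ± 0.18 (95% interval -0.04 to 0.70, adjusted p = 0.392).

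The comparisons with single groups all share the 3 WT_Freising_chow arrays, so they are not independent of each other. WT_Freising_chow was called higher in 362 of the 495 pairs of a gene and a group and lower in none. Over all genes 1.92% of such pairs were called higher and 1.69% lower. Stat2, Irf7, Mx1, Mx2, Oas3, Ifit1, Isg15, Usp18, Ddx60, Dhx58, Zbp1, Rsad2, Rtp4 and Bst2 were called against all 15 groups, where 0.0766% of all genes were. These 14 genes were joined by 8 more that were called against at least 12. Without WT_Freising_chow replicate 2 the number of pairs fell to 224.

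**Figure D3:**
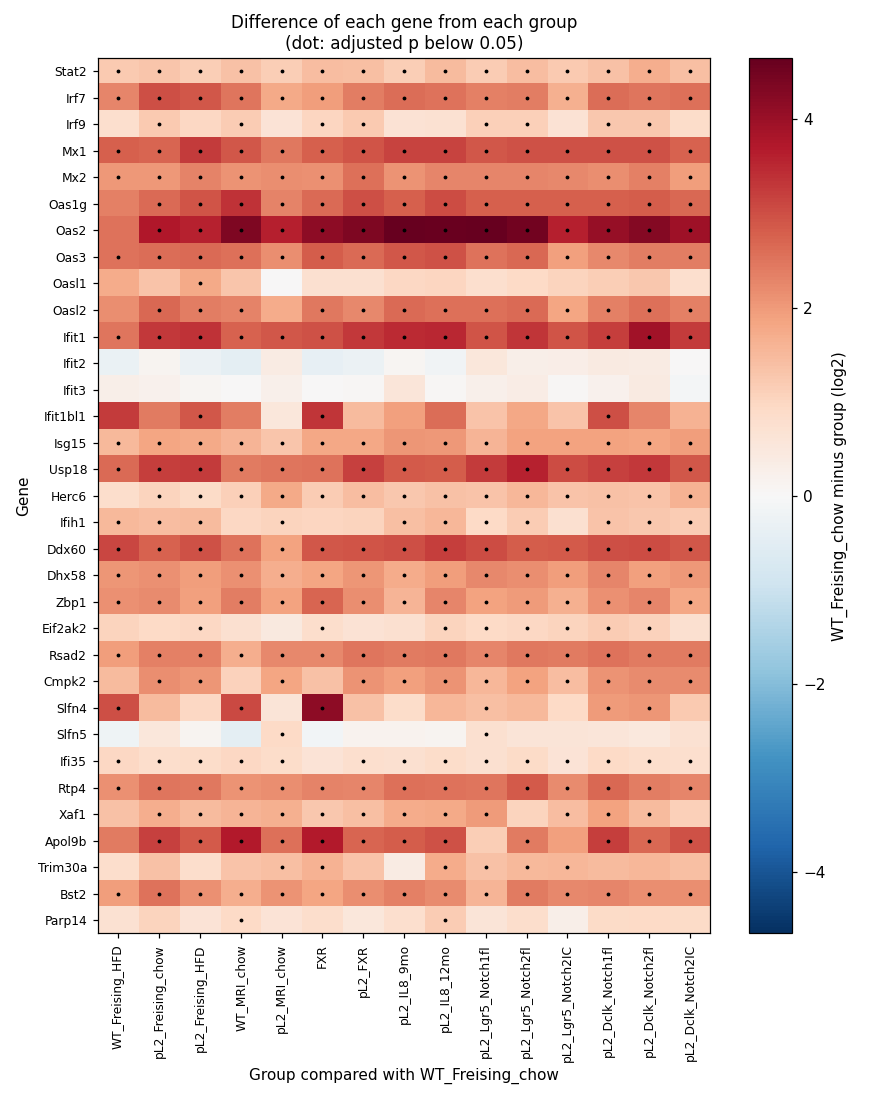
WT_Freising_chow minus each other group (columns) for each of the 33 genes (rows), in log2 units on the colour scale, with a dot where the adjusted p was below 0.05. Differences run up to 4.65, 362 of 495 cells carry a dot, and the rows of Ifit2 and Ifit3 carry none.

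Diet was the only labelled difference between WT_Freising_chow and WT_Freising_HFD. Here 17 of 33 genes were higher, where 0.117% of all genes were higher, and the median difference over the 33 was 1.96. In all 26 genes were higher and 1, or 0.00451%, was lower (Cavin4, named after its values were seen). Most of the genes that passed between these diets in wild-type mice are on this list. The list was chosen with earlier results of these data known, so that share is a description and not a test. Mx1 read 3.05, 3.50 and 3.77 on the high fat diet, near the floor, a difference in signal of 2.78 ± 0.24 (adjusted p = 3.86e-09). Slfn4, a Schlafen gene of myeloid cells, read 4.65, 4.17 and 4.56 against 7.25, 7.92 and 7.25, a difference of 3.01 ± 0.45 (adjusted p = 0.000767). Ddx60 differed by 3.12 ± 0.53 (adjusted p = 0.00353), with 4.32, 4.18 and 4.99 on the high fat diet. For Oas2 the difference was 2.52 ± 0.59 and did not pass (adjusted p = 0.0933). This count depended on single arrays: it was 3 without WT_Freising_chow replicate 2, 4 without WT_Freising_HFD replicate 2 and 6 without WT_Freising_HFD replicate 1. With array quality weights it was 29.

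In the same facility and on the same chow, the pL2 transgene was the labelled difference between WT_Freising_chow and pL2_Freising_chow. Of the 33 genes 24 were higher in the wild type, where 0.537% of all genes were, and the median difference was 2.13. Irf7 read 5.48, 5.45 and 5.25 in pL2_Freising_chow, the lowest mean of the 16 groups, and differed by 3.00 ± 0.49 (adjusted p = 0.00052). Oas2 differed by 3.74 ± 0.59 (adjusted p = 0.000365) and Ifit1 by 3.27 ± 0.50 (adjusted p = 0.000347). Slfn4, at 5.61, 6.19 and 6.18 in pL2_Freising_chow, differed by 1.48 ± 0.45 and did not pass (adjusted p = 0.121). Without WT_Freising_chow replicate 2 the count was 12, and without pL2_Freising_chow replicate 3 it was 15. All pL2_Freising_chow sample titles end in a suffix that the WT_Freising_chow titles lack, and the labels do not say what it marks.

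The facility comparison within wild type on chow called 24 of 33 genes higher in Freising than at MRI, where 2.66% of all genes were higher. Mx1 read 3.33, 3.81 and 2.85 in WT_MRI_chow (difference 2.89 ± 0.24, adjusted p = 1.3e-09). Oas2 read 4.67, 6.71 and 5.01, a difference of 4.35 ± 0.59 or 20.5-fold (adjusted p = 4.45e-05). Apol9b, at 3.41, 2.64 and 1.98 in WT_MRI_chow and so near the floor, differed in signal by 3.70 ± 0.66 (adjusted p = 0.00115). Xist, the transcript of the inactive X chromosome, read 3.90 to 4.27 in WT_Freising_chow and 10.56 to 10.90 in WT_MRI_chow, so facility, the letter code of the sample titles and this sex-linked transcript cannot be told apart in this comparison. With the Xist level as a covariate the count was 14. The skeletal muscle marker mean also differed, at 4.03 in WT_Freising_chow and 6.27 in WT_MRI_chow. Of its 10 markers 8 were called lower in WT_Freising_chow, against 3.17% of all genes, with a median difference of -2.13. The part of this list in the counts was not tested. All Freising arrays had Xist below 8, so it did not separate the groups of the Freising comparisons above.

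**Figure D4:**
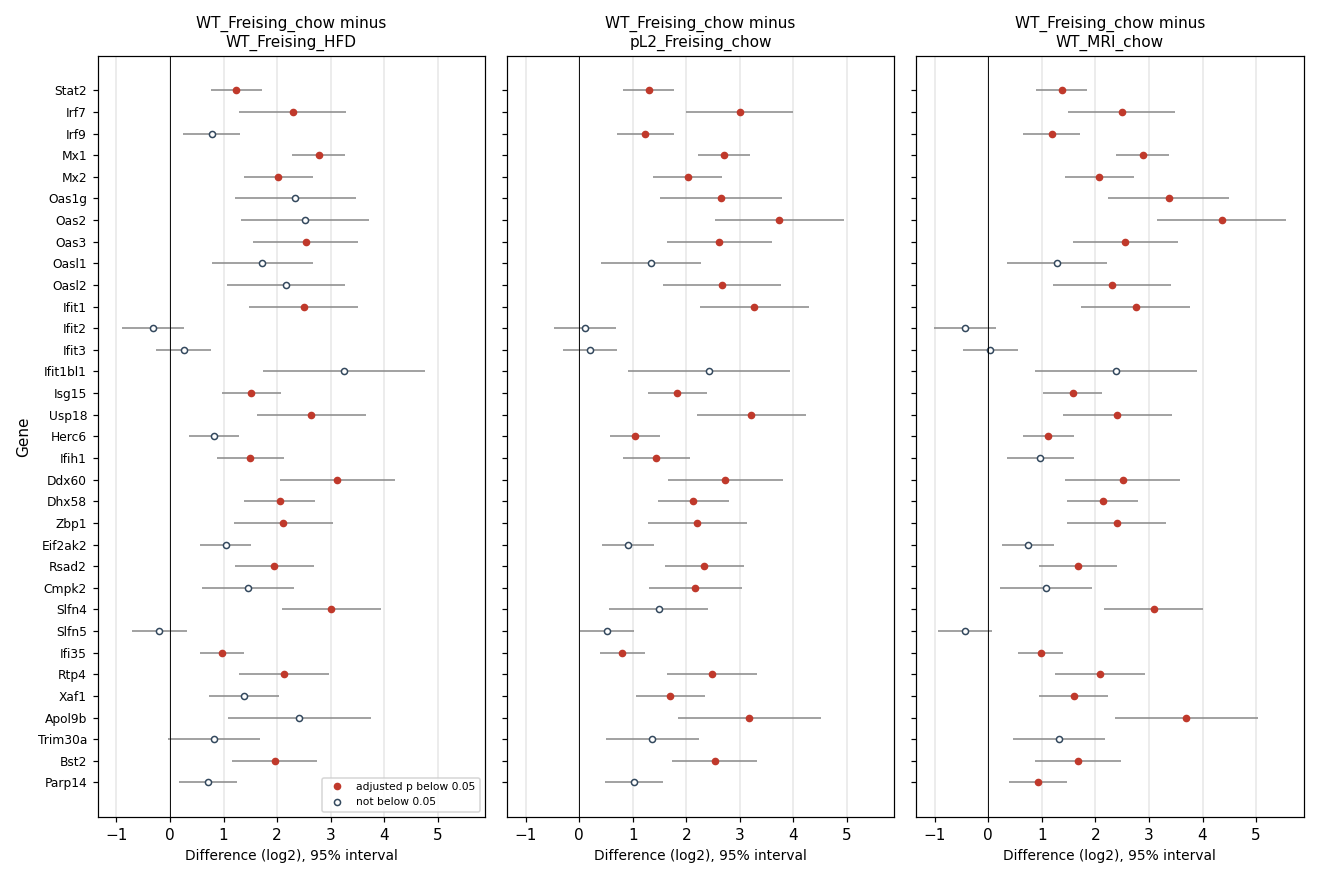
Difference in log2 units (horizontal axis) with its 95% interval for each of the 33 genes (vertical axis) between WT_Freising_chow and WT_Freising_HFD, pL2_Freising_chow and WT_MRI_chow. Filled points had an adjusted p below 0.05: 17 genes, 24 genes and 24 genes in turn, with Mx1 at 2.78, 2.71 and 2.89.

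The 12 other groups gave similar counts. All of them but pL2_Freising_HFD were kept at MRI and had other letter codes in their sample titles. Mean Xist in those MRI groups ran from 6.92 to 11.49, against 4.03 in WT_Freising_chow. The Notch lines also differed in age and tamoxifen. These differences and the genotypes cannot be told apart here. With the Xist level as a covariate some of the counts were lower, as given under the processing. Between 22 and 27 genes were higher in WT_Freising_chow, with 22 against pL2_Dclk_Notch2IC (0.577% of all genes), 27 against pL2_Lgr5_Notch1fl (6.33%) and 27 against pL2_Dclk_Notch1fl (1.21%). There were 26 each against pL2_Dclk_Notch2fl (0.514%), pL2_Freising_HFD (0.518%) and pL2_IL8_12mo (0.392%), and 25 each against FXR (2.56%) and pL2_Lgr5_Notch2fl (2.43%). Against pL2_MRI_chow it was 24 (3.14%). Against pL2_FXR (0.866%), pL2_IL8_9mo (1.5%) and pL2_Lgr5_Notch2IC (5.52%) it was 23 each. The largest single difference was that of Oas2 against pL2_Lgr5_Notch1fl, at 4.65. Without WT_Freising_chow replicate 2 the count fell to 13 to 17 against 8 of these 12 groups: pL2_Dclk_Notch1fl, pL2_Dclk_Notch2fl, pL2_Dclk_Notch2IC, pL2_Freising_HFD, pL2_IL8_12mo, pL2_Lgr5_Notch1fl, pL2_Lgr5_Notch2IC and pL2_MRI_chow. It fell to 15 to 17 without pL2_Dclk_Notch1fl replicate 3, pL2_Dclk_Notch2fl replicate 1 or 3, pL2_Freising_HFD replicate 2, pL2_Lgr5_Notch2fl replicate 3, pL2_Lgr5_Notch2IC replicate 1 or pL2_MRI_chow replicate 2, each in its own comparison. Over the 15 comparisons the median difference of the 33 genes ran from 1.58 to 2.17, while the median over all genes ran from -0.089 to 0.014.

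Whether the pL2 minus WT difference was alike in the 2 facilities was tested directly. In Freising the median pL2 minus WT difference of the 33 genes on chow was -2.13, and at MRI it was 0.28. The difference of these effects was below 0 at an adjusted p below 0.05 for 20 of 33 genes, where 0.374% of all genes were called lower. Mx1 in pL2 was 2.71 below WT in Freising and 0.43 above it at MRI. That is a difference of effects of -3.14 ± 0.34 (adjusted p = 1.58e-06). Of the 4 groups in that test, 3 held Mx1 near the floor, so the size of these signal differences is limited by it. Slfn4 differed by -1.48 in Freising and by 2.48 at MRI, a difference of effects of -3.96 ± 0.64 (adjusted p = 0.00312). The effect of diet in pL2 minus its effect in WT was above 0 for all 33 genes but passed only for Mx1 (2.22 ± 0.34, adjusted p = 0.00187) and Slfn4 (3.55 ± 0.64, adjusted p = 0.0228), where 0.0135% of all genes were called. A further 27 of the 33 had an unadjusted p under 0.05. Both tests contain the WT_Freising_chow arrays. The first count fell to 13 or fewer without any 1 of 8 of its 12 arrays, was 3 without WT_Freising_chow replicate 2 and was 5 when only the 4 groups were fitted, and the second was 0 when only its 4 groups were fitted. With the Xist level as a covariate the first count was 6. All 3 WT_MRI_chow arrays had Xist above 10, while 2 of the 3 pL2_MRI_chow arrays read 4.92 and 3.82.

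Pooled over the comparisons without WT_Freising_chow, few of these genes and few of all genes passed. In 15 comparisons between the other groups 5 of 495 tests passed, where 1.69% of all such tests did, and the median difference of the 33 genes ran from -0.45 to 0.28. With array quality weights the number was 32. Slfn4 accounted for 3 of the 5. It was higher in pL2_MRI_chow than in WT_MRI_chow (2.48 ± 0.45, adjusted p = 0.000287), where 15.3% of all genes were called, in pL2_FXR than in FXR (2.77 ± 0.45, adjusted p = 0.000118; 6.24% of all genes) and in pL2_Freising_HFD than in WT_Freising_HFD (2.07 ± 0.45, adjusted p = 0.0188; 0.699%). The neutrophil marker mean was also higher in each of those pL2 groups, at 7.41 against 5.11, 7.08 against 4.17 and 6.83 against 4.59, and its part in the Slfn4 result was not tested. WT_Freising_chow had the highest Slfn4 mean of the 16 groups, and its neutrophil marker mean was 4.48. A single pL2_Freising_HFD array, at 8.24 for Slfn4, stood above the highest WT_Freising_chow array, at 7.92. Slfn4 was called higher in WT_Freising_chow against 6 of the 15 other groups, with a difference from their mean of 1.74 ± 0.33. Besides Slfn4, Slfn5 (-1.35 ± 0.25) and Ifit2 (-0.81 ± 0.29) made up the 5, both lower in pL2_MRI_chow than in WT_MRI_chow. Ifit2 was near the floor in both groups, at 3.98, 3.79 and 3.89 in WT_MRI_chow and 3.12, 2.90 and 3.21 in pL2_MRI_chow.

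The rest of the pathway was read from wider lists, against the mean of the 15 groups. None of 19 interferon ligand genes passed, and none had an unadjusted p under 0.05 (limma). Their mean in WT_Freising_chow was 3.19, near the floor of the array. None of 6 receptor genes passed, with 1 at an unadjusted p under 0.05, and none of 9 genes of receptor signalling, with 2. Against WT_MRI_chow alone Ifna4 (1.76 ± 0.42) and Ifna7 (1.13 ± 0.32) were higher, where 2.66% of all genes were higher. Ifnb1 (-0.56 ± 0.17) was lower there, where 3.17% of all genes were lower. The highest difference of any of the 19 ligand genes was 0.22 against the mean of the 15 groups. It was 0.42 against WT_Freising_HFD and 0.26 against pL2_Freising_chow. Of 14 measured upstream sensors and adaptors, Ddx58, the sensor RIG-I (1.21 ± 0.18), and Trim25, the ligase that activates it (0.48 ± 0.13), were higher. Against the same mean 1.08% of all genes were higher. Ikbke was lower against pL2_Freising_chow alone (-0.98 ± 0.22), as were 0.415% of all genes.

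Among 31 further interferon-induced genes 11 were higher and none lower, with a median difference of 0.69. Over all genes 1.08% were higher and 0.947% lower against the mean of the 15 groups. Igtp, an immunity-related GTPase, differed by 2.07 ± 0.43. Sp100, a nuclear body protein, differed by 1.74 ± 0.20 and Rnf213 by 1.70 ± 0.19, and both were called against all 15 groups. Oas1b (1.66), Ifi27 (1.58), Parp12 (1.27), Lgals3bp (1.13), Helz2 (1.11), Irgm1 (0.98), Parp9 (0.69) and Adar (0.63) made up the remainder. None of the 16 measured genes on the interferon gamma response list passed, 2 having an unadjusted p under 0.05 (limma), and their median difference was -0.05. This holds for that list alone, which includes neither Igtp nor Irgm1, counted above with the further interferon-induced genes. Of 13 genes of class I antigen presentation B2m (0.44 ± 0.11) and H2-K1 (0.55 ± 0.15) were higher. Against WT_MRI_chow alone these were joined by Tap1 (1.02 ± 0.29), a peptide transporter subunit, and Nlrc5 (1.42 ± 0.37), the class I transactivator, while Erap1 (-0.84 ± 0.20), a peptide trimming enzyme, was lower. Of the further induced genes Ly6e (1.22), Phf11b (1.32) and Pnpt1 (0.56) were also higher against WT_MRI_chow alone. In that comparison 2.66% of all genes were higher and 3.17% lower.

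Markers of cells that could carry the signal were set beside these values. The mean of the 8 plasmacytoid dendritic cell markers, a main source of type I interferon, was 6.06 in WT_Freising_chow and 5.77 to 6.38 in the other groups. For 11 macrophage markers it was 6.26 against 5.76 to 7.01, for 11 T and NK cell markers 3.80 against 3.79 to 4.71, and for 11 neutrophil markers 4.48 against 4.17 to 8.15. In the other groups without pL2 the neutrophil mean was 4.59 (WT_Freising_HFD), 5.11 (WT_MRI_chow) and 4.17 (FXR). Of these lists Cd14, Cd3e, Cd3g, S100a8, S100a9, Cd177, Cxcr2 and Retnlg were lower against the mean of the others and none was higher. Over all genes 0.947% were lower against that mean. All 8 smooth muscle markers had a positive difference there, with a median of 1.21, and all 8 had an unadjusted p under 0.05 (limma), although none passed after adjustment. Against WT_Freising_HFD the median of these markers was 0.04, and against WT_MRI_chow it was -0.73. The squamous keratins Krt6a (-2.20) and Krt16 (-2.51) were lower against the mean. They did not stand for their list, since 6 of the 10 squamous markers had a positive difference. The median of the 10 was 0.30 and the largest 1.42, and none was called higher. The part of these marker differences in the counts was not tested. With the macrophage mean as a covariate the count against each of the 15 groups and their mean stayed within 1.5 times its value.

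Genes on no list were read for the same pattern. In all 40 genes (0.18% of those measured) were called higher in WT_Freising_chow against at least 12 groups, and 22 of them are on the list described here. That list was chosen with earlier results of these data known. The predicted gene Gm20234, at 7.08 against a mean of 3.64, was called against all 15. Ube2l6, the conjugating enzyme for Isg15, differed by 1.18 ± 0.22, and Apol9a, a neighbouring copy of Apol9b with which it may share signal, by 1.73 ± 0.30. Egf (1.95), Chil5 (1.94), Ranbp3l (1.48), Dmbx1 (1.27), Rimbp2 (1.23), Phf11c (1.14), Unc79 (0.92) and Ell2 (0.69) were also called higher against at least 12, and all of these genes are named after their values were seen. Leaving aside predicted genes such as Gm20234, the 10 largest differences among unlisted genes called one way against at least 12 groups were all lower in WT_Freising_chow, where 0.135% of all genes were called lower against that many. They were Defb3 (-5.06), Chil1 (-3.28), Sprr2f (-3.22), Cxcl5 (-3.18), Stfa1 (-3.12), Sprr2g (-2.95), Tmprss11b (-2.82), Lcn2 (-2.78), Defb14 (-2.55) and Slc6a14 (-2.21), which include epithelial defence peptides and neutrophil-linked genes. All the other groups except WT_Freising_HFD, WT_MRI_chow and FXR carried pL2. Slc6a14 was called lower against 13 groups and the rest against 12. None of these 10 was called lower against WT_Freising_HFD, where Cavin4 was the only gene called lower. The part of the transgene in these differences was not tested. None of the type I interferon response genes was among the genes called lower.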

How the data were processed

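Gene expression was measured on Affymetrix arrays of whole squamocolumnar junction and cardia tissue. Per the labels' protocols, total RNA was extracted with Trizol, cleaned on columns with DNase and labelled with biotin. The authors deposited log2 values made with RMA in Affymetrix Expression Console, per the submitters' processing notes, which give no version. The array's genome build is not given in the sources used here. RMA sets the arrays to a common distribution, so a shift shared by most genes is removed, and low values are compressed. Array medians ran from 4.03 to 4.27.

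Of 34390 probe set entries, 23521 carried 1 gene symbol, 1814 several and 9055 none, by the platform annotation. The brightest entry of each of 22180 symbols was kept, with no filter on low values, so that every listed gene was tested. All 33 genes with a value also passed the filter tried as an alternative, and 31 did so on the other 45 arrays alone. One model of 16 group means was fitted to the 48 arrays with limma 3.58.1 in R 4.3.3, leaving 32 residual degrees of freedom, with eBayes, two-sided tests and Benjamini-Hochberg adjustment over all genes within each of 33 comparisons. A gene was called at an adjusted p below 0.05. The fit was tested on simulated data with known differences. The number of arrays, 3 a group, limits the precision.

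The members and the wider lists were chosen with earlier results of these data known, so the counts are descriptions of a chosen list. All 35 listed genes are named. Of the wider pathway lists, genes called against WT_Freising_HFD, pL2_Freising_chow, WT_MRI_chow or the mean of the others are named, and of genes on no list the 10 of largest difference called one way against at least 12 groups, without predicted genes. Other genes named are said to be named after their values were seen, and cell type markers are given as lists with examples. Promoter windows came from RefSeq (GRCm38.p6) and were scanned with Python 3.11.15; their start sites were checked by the share with a pyrimidine before and a purine at the start, 46.0% and 46.6% on the 2 strands. Alternatives covered low-value filters, probe set averaging, array weights, moderation, cyclic loess, covariates, subsets and leaving out each array, of which 2 subsets were chosen after seeing the data.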

Additional observations from a re-analysis of the deposited data

Results flagged for a closer look

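These results were picked out because the effect of 1 factor differed between 2 settings by a test of the difference itself (limma, adjusted p below 0.05). The pL2 minus WT difference on chow in Freising, less the same difference at MRI, was below 0 for 20 genes. In log2 units the transcription factors gave Stat2 -1.54, Irf7 -3.74 and Irf9 -1.79, the Mx genes Mx1 -3.14 and Mx2 -1.95, and the Oas family Oas1g -3.73, Oas2 -4.46, Oas3 -3.002, Oasl1 -2.59 and Oasl2 -3.26. The Ifit family gave Ifit1 -3.14 and Ifit1bl1 -4.28, the Isg15 system Isg15 -2.12 and Usp18 -3.13, and the sensors Ddx60 -3.38, Dhx58 -2.57 and Zbp1 -2.72. The other effectors were Slfn4 -3.96, Rtp4 -2.41 and Apol9b -4.32. Apol9b read near the floor in WT_MRI_chow and pL2_Freising_chow, which limits the size of its value. The effect of the high fat diet in pL2 less its effect in WT was above 0 for Mx1 (2.22) and Slfn4 (3.55). All 22 values contain the 3 WT_Freising_chow arrays, so they are not independent of one another or of the comparisons above. No outlier test was run on groups of 3, but each array was left out in turn. The count of 20 then ran from 3 to 26.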

How the results depend on the processing

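Single genes were followed in the comparisons with WT_Freising_HFD, pL2_Freising_chow, WT_MRI_chow and the mean of the others, and in the tests of a difference of effects. No called difference reversed there under the alternatives run. For the other comparisons only counts were followed, so a reversal of a single gene was not looked for. Of 5064 single-gene values under an alternative, 4626 stayed on the same side of the threshold, 309 no longer passed and 129 newly passed. A change of sign was counted as unchanged where neither value passed. Filters, averaging of probe sets, moderation and cyclic loess kept every count within 1.5 times its main value. Pairs called numbered 362, and 224 to 373 with 1 array left out.

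With 1 array left out the counts ran from 20 to 26 (FXR), 16 to 27 (pL2_Dclk_Notch1fl), 13 to 27 (pL2_Dclk_Notch2fl), 14 to 23 (pL2_Dclk_Notch2IC), 12 to 26 (pL2_Freising_chow), 14 to 24 (pL2_Freising_HFD), 16 to 24 (pL2_FXR), 17 to 26 (pL2_IL8_12mo), 18 to 23 (pL2_IL8_9mo), 17 to 25 (pL2_Lgr5_Notch1fl), 16 to 25 (pL2_Lgr5_Notch2fl), 15 to 24 (pL2_Lgr5_Notch2IC), 14 to 24 (pL2_MRI_chow), 3 to 16 (WT_Freising_HFD), 18 to 27 (WT_MRI_chow) and 20 to 29 (mean of the others). With the Xist level as a covariate they were 15 (FXR), 17 (pL2_Dclk_Notch1fl), 13 (pL2_Dclk_Notch2fl), 14 (pL2_Dclk_Notch2IC), 12 (pL2_FXR) and 14 (WT_MRI_chow). With the compared groups fitted alone they were 15 (pL2_Freising_HFD), 13 (pL2_Lgr5_Notch1fl) and 7 (pL2_Lgr5_Notch2IC), from fewer residual degrees of freedom. Chosen after seeing the data, arrays with Xist below 8 alone gave 4 (pL2_Dclk_Notch2IC), 5 (pL2_Lgr5_Notch2fl) and 13 (pL2_Lgr5_Notch2IC), with 1 array left in some groups, whose spread is assumed to be that of the others. Only 10 groups had such an array, and the rest, WT_MRI_chow among them, gave no value there. Leaving out, also chosen after seeing the data, the 10 arrays whose hepatocyte or intestinal marker mean exceeded 8 gave 17 (pL2_Dclk_Notch2fl). Array quality weights gave 29 against WT_Freising_HFD in place of 17, and 32 in place of 5 over the comparisons without WT_Freising_chow. The cause of these changes was not tested.

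The count of 20 for the transgene by facility was 6 with the Xist covariate, 5 with the 4 groups alone, 5 without the 10 arrays, and 3 to 26 with 1 array left out. It was 13 or lower after leaving out any 1 of WT_MRI_chow replicate 1 or 3, pL2_MRI_chow replicate 2 or 3, pL2_Freising_chow replicate 1 or 3 and WT_Freising_chow replicate 2 or 3. The count of 2 for diet by transgene was 29 with array weights, 0 with the macrophage covariate, 0 with the 4 groups alone, 0 with Xist below 8, and 1 to 3 with 1 array left out. The promoter share of 60% was 28% with the longer motif. No paired analysis was possible because the labels carry no replicate numbers that tie arrays of different groups together.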

Other observations

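The level of the 33 genes also varied among arrays of single groups outside WT_Freising_chow. Their mean was 5.28, 5.52 and 5.96 on the pL2_MRI_chow arrays, from lowest to highest, and pL2_MRI_chow was the group next to WT_Freising_chow for 12 of the 33 genes. In pL2_Lgr5_Notch2IC it ran from 5.01 to 5.90, and in pL2_Lgr5_Notch2fl from 4.66 to 5.64. The 5.96 was the highest value among the 45 arrays.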
